A study of Mus musculus with 9 samples.

Results

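Interferon-stimulated genes are the genes that a cell transcribes at a higher rate when an interferon binds its receptor. The set described here holds 36 mouse genes. They were found by gene symbol from a list that was drawn up with earlier results of these data known. All 36 were measured, each by 1 probe set, among 19938 genes with a single gene symbol. RNA was measured on Affymetrix arrays in 3 sorted cell populations of CX3CR1 gfp+/- mice, in which 1 copy of the fractalkine receptor gene carries a green fluorescent protein (GFP) reporter, with 3 arrays each and 9 in all. T cell zone macrophages (TZM), resident macrophages of the lymph node, were sorted as GFP-high, MertK+, CD11b+ and CD169- cells. Microglia, the resident macrophages of the brain, were sorted as GFP-high, CD11b+ and CD45+ cells. CD8a+ DC, dendritic cells that present antigen taken up from dead cells, were sorted as CD64-, CD11c-high, MHCII-high and CD8a+ cells. The sample labels place the CD8a+ DC in the lymph node, and the sorting protocol places them in the spleen. No population carried an interferon treatment or infection per the labels, and all mice carried the reporter, so no array shows cells without it. The labels call the arrays biological replicates. They do not give the strain, age, number or pooling of the mice.

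In the textbook account, type I interferons bind a receptor made of Ifnar1 and Ifnar2 and activate the kinases Jak1 and Tyk2. A complex of phosphorylated STAT proteins and Irf9 then binds the interferon-stimulated response element in the promoters of its target genes. The target genes encode sensors of foreign nucleic acid, proteins that block translation or virus release, GTPases that attack the vacuoles of intracellular pathogens, and regulators that strengthen or end the response. Many of them are also transcribed at a basal rate in unstimulated myeloid cells.

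The levels are robust multi-array average (RMA) values on a log2 scale, on which a difference of 1 stands for a 2-fold difference. They are compared here between populations for one gene at a time, never between genes. A gene was called different at a Benjamini-Hochberg adjusted p under 0.05, over all genes in limma's fit, and a log2 fold change of 1 or more in size. Most marker genes of the labelled populations were high where the labels place them, with exceptions for TZM. The 6 macrophage markers averaged 10.44 to 10.92 per array in TZM, 11.31 to 11.43 in microglia and 5.39 to 5.69 in CD8a+ DC, and the 6 markers of CD8a+ DC averaged 4.95 to 5.12, 4.38 to 4.48 and 9.64 to 9.76 in the same order. Of 3 T zone macrophage markers, Pla2g2d and Timd4 were called higher in TZM than in both others, while Cd163l1 stood between 4.24 and 4.67 on all 9 arrays. Siglec1 encodes CD169, by whose absence TZM were sorted, yet its transcript was at 8.15, 6.80 and 7.21 in TZM, 5.56 on each microglia array, and 4.76, 4.78 and 5.14 in CD8a+ DC. Siglec1, Marco and Cd5l, the 3 sinus macrophage markers, were all called higher in TZM than in microglia and in CD8a+ DC, with Marco at 4.97 to 5.29 and Cd5l at 4.72 to 5.20 in TZM. The 4 microglia markers averaged 11.14 to 11.28 in microglia, 7.07 to 7.21 in TZM and 4.30 to 4.49 in CD8a+ DC. In TZM the average joins unlike levels, with means of 9.80 for P2ry12, 9.18 for Tmem119, 5.05 for Fcrls and 4.48 for Sall1. All 4 were called lower in TZM than in microglia, and 3 higher than in CD8a+ DC. Some markers of other cells differed between arrays, and the source of their transcripts was not tested. The 4 neutrophil markers averaged 5.05, 6.89 and 5.97 on TZM replicates 1 to 3, against 3.87 to 4.0 in microglia and 4.10 to 4.26 in CD8a+ DC. Of these, S100a8 and S100a9 were called higher in TZM than in both others, and Ngp and Ly6g were not called. Ttr, a choroid plexus product, was at 12.15, 5.48 and 11.83 on microglia replicates 1 to 3. In such bulk samples, fewer cells of a type and less RNA per cell cannot be told apart.

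More interferon-stimulated genes were called higher than lower in TZM, against either other population. Against CD8a+ DC, 15 of the 36 were called higher in TZM and 3 lower, where 4.71% of all genes were called higher and 4.03% lower. The largest increase was that of the RNA sensor gene Ddx58 (log2 fold change 4.21), and the 3 lower genes were Mx1, Samd9l and Ifi205. Against microglia, 19 were called higher in TZM and 0 lower, beside 4.25% and 3.4% of all genes. The median log2 fold change over the 36 genes was 0.81 against CD8a+ DC and 1.04 against microglia, and over all genes it was 0.02 and 0.01. Because the list was drawn up with results of these data known, these counts describe it and are not independent evidence of a direction. In 21 other interferon-induced genes, the medians were -0.22 and 1.22. Between microglia and CD8a+ DC, 24 of the 36 genes were not called, 5 were called higher in microglia and 7 lower, beside 5.15% and 6.01% of all genes, and a median of -0.12. The first 2 comparisons share the TZM arrays, so their counts are not independent of each other. Without TZM replicate 2, the array with the highest mean of the neutrophil markers, 14 genes were called higher and 3 lower than in CD8a+ DC, and 17 higher than in microglia. With no minimum fold change, TZM against CD8a+ DC gave 20 higher and 4 lower of the 36, beside 9.83% and 10.4% of all genes. By that rule 25 were called higher and 1 lower in TZM than in microglia, beside 10% and 9.39% of all genes. In microglia against CD8a+ DC, it called 7 higher and 13 lower, beside 12% and 13.1% of all genes.

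Sorted by how they were called, 13 genes were higher in TZM than in microglia and CD8a+ DC alike, as were 2.06% of all genes. They were Ddx58, Ifih1, Ifit1, Ifit2, Ifit3, Iigp1, Gbp3, Parp14, Rsad2, Bst2, Rtp4, Lgals3bp and Tor3a. Oas2 and Xaf1 were called higher in TZM than in CD8a+ DC only, and Zbp1, Irgm1, Usp18 and Ifi27l2a were called higher in TZM than in microglia only, beside 2.18% and 1.79% of all genes. The difference between those differences was not tested. Samd9l and Ifi205 were called lower in TZM than in CD8a+ DC and higher than in microglia, beside 0.411% of all genes. There were 12 genes called in no comparison (33.3%, and 84.6% of all genes), namely Dhx58, Eif2ak2, Isg20, Oas3, Oasl1, Oasl2, Herc6, Parp9, Dtx3l, Stat2, Cmpk2 and Ly6e. By mean level, TZM ranked first for 25 of the 36 genes (69.4%, and 34.6% of all genes), microglia for 1 (2.78%, and 33.6% of all genes) and CD8a+ DC for 10 (27.8%, and 31.9% of all genes). All 3 TZM arrays lay above the other 6 arrays for 20 of the 36, and this held for 7.01% of all genes. All 3 microglia arrays lay above the other 6 for Mx2 alone, beside 9.67% of all genes. All 3 CD8a+ DC arrays did so for 5 genes (Oasl1, Mx1, Ifi35, Samd9l and Ifi205), beside 11% of all genes.

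**Figure D1:**
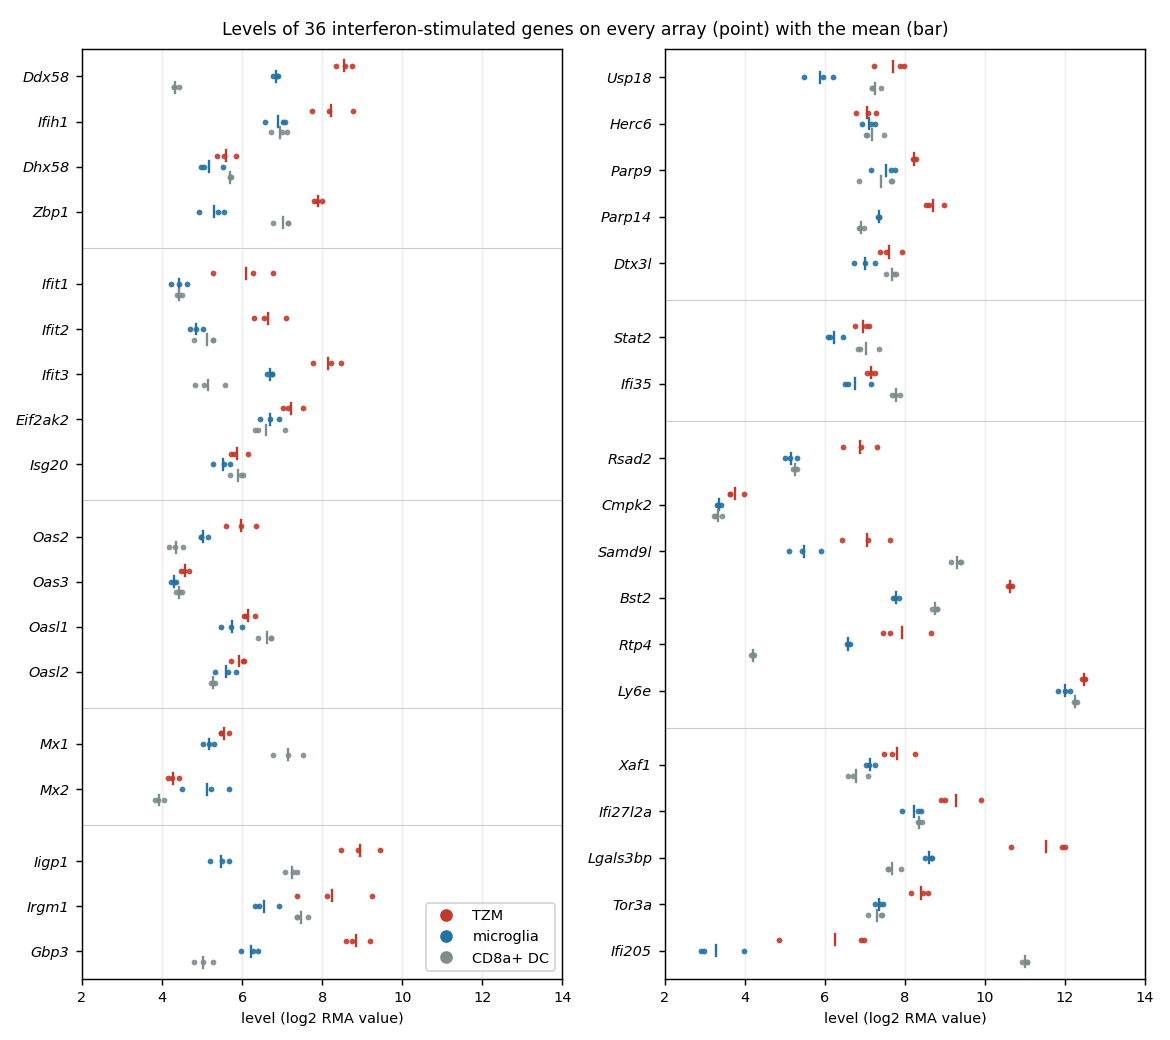
Level of each of the 36 interferon-stimulated genes on every array, on the log2 RMA scale of the horizontal axis, with TZM above microglia and CD8a+ DC within each gene, points for arrays and bars for means of 3 arrays. TZM points lie to the right of all others for 20 genes, and Samd9l, Mx1 and Ifi205 are the genes called lower in TZM than in CD8a+ DC.

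The promoters were read for the response element because the 36 genes are grouped by a shared transcriptional response. RefSeq promoters of build GRCm38.p6, from 250 bases before to 50 bases after the transcription start, were at hand for 23 of the 36 genes. The core of the element was searched as GAAANNGAAA on both strands, on which it reads TTTCNNTTTC when reversed. It was found in 12 of the 23 (52.2%), against 3.99% of the 27025 genes with a promoter in the table. The gamma-activated site, TTCNNNGAA, which reads the same on both strands, was found in 5 of the 23 (21.7%) and in 9.55% of all these genes. The motifs were searched separately, and their matches may overlap. Of the 12 genes with the element, 7 were called higher in TZM against both others and 3 were called in no comparison. Of the 11 genes without it in this window, 2 (Ifit2 and Lgals3bp) were called higher against both and 6 in no comparison. For the 13 genes with no promoter in the table, those counts were 4 and 3. Over all genes, 2.06% were called higher in TZM than in both others and 84.6% in no comparison. Whether the element goes with the calls was not tested, and the list was drawn up with results of these data known.

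The promoters of 4 genes highest in TZM, chosen among those that hold the core, are printed first. Each runs 5′ to 3′ on the gene's strand, with the element core in capitals. They are Ddx58 (chr4:40239776-40240075, minus strand), Gbp3 (chr3:142559794-142560093, plus strand), Ifit3 (chr19:34583279-34583578, plus strand) and Bst2 (chr8:71537423-71537722, minus strand). The first transcribed base is numbered 1, the base before it -1, and no base 0. On this count the core begins at 3 in Ddx58 and at -156 and -122 in Ifit3. It begins at -45 and -39 in Gbp3 and at -130 and -124 in Bst2, and in each of these genes the 2 matches overlap.
Ddx58: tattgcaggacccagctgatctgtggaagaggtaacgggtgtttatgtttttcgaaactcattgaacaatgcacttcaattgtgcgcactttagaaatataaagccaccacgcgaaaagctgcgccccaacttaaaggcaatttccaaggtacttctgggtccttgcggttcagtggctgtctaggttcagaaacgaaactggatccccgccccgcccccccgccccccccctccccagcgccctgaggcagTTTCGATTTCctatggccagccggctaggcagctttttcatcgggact
Gbp3: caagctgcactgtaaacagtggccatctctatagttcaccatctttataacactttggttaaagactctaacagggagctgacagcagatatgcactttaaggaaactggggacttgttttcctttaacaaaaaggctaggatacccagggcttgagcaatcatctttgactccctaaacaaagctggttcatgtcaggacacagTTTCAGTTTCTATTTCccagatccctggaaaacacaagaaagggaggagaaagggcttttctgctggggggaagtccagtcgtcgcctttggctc
Ifit3: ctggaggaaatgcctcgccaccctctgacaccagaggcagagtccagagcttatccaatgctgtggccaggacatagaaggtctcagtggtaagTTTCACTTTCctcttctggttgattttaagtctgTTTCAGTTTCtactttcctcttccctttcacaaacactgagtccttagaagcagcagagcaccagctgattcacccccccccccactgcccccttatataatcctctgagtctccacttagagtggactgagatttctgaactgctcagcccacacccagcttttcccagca
Bst2: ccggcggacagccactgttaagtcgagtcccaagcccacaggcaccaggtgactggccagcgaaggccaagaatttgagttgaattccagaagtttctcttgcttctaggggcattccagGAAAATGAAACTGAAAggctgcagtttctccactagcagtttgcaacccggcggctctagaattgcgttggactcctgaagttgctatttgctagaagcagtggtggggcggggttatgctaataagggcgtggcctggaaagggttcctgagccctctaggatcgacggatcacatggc

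For contrast, the promoters of the 2 genes lower in TZM than in CD8a+ DC and higher than in microglia follow, Ifi205 (chr1:174031706-174032005, minus strand) and Samd9l (chr6:3399522-3399821, minus strand). Ifi205 holds the core at -134 and again at 24, and Samd9l holds no match, so no letter is in capitals.
Ifi205: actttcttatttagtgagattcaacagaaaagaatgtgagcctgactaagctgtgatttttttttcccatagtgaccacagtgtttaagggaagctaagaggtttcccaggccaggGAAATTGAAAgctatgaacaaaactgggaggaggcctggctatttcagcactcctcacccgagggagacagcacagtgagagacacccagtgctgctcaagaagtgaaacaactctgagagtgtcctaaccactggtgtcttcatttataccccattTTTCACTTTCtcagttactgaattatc
Samd9l: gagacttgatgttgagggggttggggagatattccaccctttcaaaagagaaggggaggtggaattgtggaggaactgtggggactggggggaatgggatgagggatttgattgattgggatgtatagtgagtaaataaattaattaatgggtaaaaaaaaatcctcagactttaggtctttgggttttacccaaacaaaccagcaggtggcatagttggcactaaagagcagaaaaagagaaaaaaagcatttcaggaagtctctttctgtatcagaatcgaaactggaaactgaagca

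Stretches of 30 bases around the core are given for the other 7 genes that hold it, to show how alike the cores of called and uncalled genes read. Ifit1, Ifih1 and Rsad2 were called higher in TZM than in both others and Irgm1 higher than in microglia, while Oas3, Stat2 and Eif2ak2 were called in no comparison.
Ifit1: gTTTCACTTTCcagtctcagTTTCAGTTTC
Ifih1: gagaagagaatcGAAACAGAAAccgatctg
Rsad2: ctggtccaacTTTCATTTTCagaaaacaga
Irgm1: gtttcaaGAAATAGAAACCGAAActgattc
Oas3: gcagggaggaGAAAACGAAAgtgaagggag
Stat2: cgcaccctggTTTCAGTTTCctttccctag
Eif2ak2: agtccgccggGAAAACGAAAcagaagagaa

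The core thus appeared in promoters of genes high in TZM (Ddx58, Gbp3, Ifit3, Bst2), of a gene far higher in CD8a+ DC (Ifi205) and of genes called in no comparison (Oas3, Eif2ak2). It was absent from the windows of Ifit2 and Lgals3bp, which were also called higher in TZM than in both others. A match of letters is a description of the window and not a bound site.

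Among the sensors of foreign nucleic acid, 2 of 4 genes were called higher in TZM than in CD8a+ DC and 3 of 4 higher than in microglia. Over all genes, those shares were 4.71% and 4.25%. This group and those below were drawn up with earlier results of these data known, so their counts are descriptions. Ddx58 encodes RIG-I, which detects viral RNA in the cytosol. Its level was 8.74, 8.56 and 8.34 in TZM, 6.87, 6.76 and 6.89 in microglia, and 4.30, 4.42 and 4.29 in CD8a+ DC. The 3 populations did not overlap, in the order TZM, microglia, CD8a+ DC, and each step was called: 4.21 ± 0.10 (log2 fold change ± SE, adjusted p = 4.5e-08) for TZM against CD8a+ DC, 1.71 ± 0.10 (adjusted p = 7.1e-06) for TZM against microglia and 2.51 ± 0.10 (adjusted p = 4.0e-07) for microglia against CD8a+ DC. Ifih1, which encodes a sensor of long double-stranded RNA, was at 8.16, 8.76 and 7.75 in TZM, 7.08, 6.56 and 7.02 in microglia, and 7.11, 7.0 and 6.71 in CD8a+ DC. TZM lay above both others, by 1.34 ± 0.25 over microglia and 1.28 ± 0.25 over CD8a+ DC, and the other 2 populations overlapped. Dhx58 encodes a relative of these sensors that modulates them. It spanned only 4.98 to 5.85 over all 9 arrays and was not called. Zbp1, which encodes a sensor of Z-form nucleic acid that can trigger cell death, was at 7.99, 7.88 and 7.80 in TZM, 5.56, 4.92 and 5.40 in microglia, and 7.14, 6.78 and 7.15 in CD8a+ DC. Here CD8a+ DC stood in the middle, and microglia were lowest by 2.60 ± 0.17 against TZM. The difference of 0.87 between TZM and CD8a+ DC had an adjusted p of 0.0066 and stayed under the fold threshold.

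The 3 measured IFIT genes encode proteins that bind foreign RNA or translation factors. All 3 were called higher in TZM than in both others, as were 2.06% of all genes. Ifit3 was at 8.21, 8.47 and 7.78 in TZM, 6.74, 6.74 and 6.63 in microglia, and 4.83, 5.57 and 5.06 in CD8a+ DC. Its populations lay in 3 separate ranges, 3.00 ± 0.21 apart between TZM and CD8a+ DC (adjusted p = 1.7e-05). The mouse genome holds a near-identical copy of Ifit3, and whether its transcript adds to this probe set was not tested. Ifit2 had levels of 6.55, 7.09 and 6.30 in TZM, 4.84, 4.69 and 5.02 in microglia, and 5.28, 4.80 and 5.28 in CD8a+ DC. For this gene the separation was between TZM and the rest, with log2 fold changes of 1.80 ± 0.21 over microglia and 1.53 ± 0.21 over CD8a+ DC. Ifit1 stood at 6.27, 6.78 and 5.28 in TZM, 4.42, 4.63 and 4.22 in microglia, and 4.37, 4.42 and 4.49 in CD8a+ DC. TZM replicate 3 came closest to the other populations, and the mean of TZM exceeded each of them by about as much (1.69 ± 0.32 and 1.68 ± 0.32). Eif2ak2, the kinase that halts translation on sensing double-stranded RNA, averaged 7.23 ± 0.26 in TZM, 6.69 ± 0.24 in microglia and 6.59 ± 0.41 in CD8a+ DC (SD, n = 3 each) and was not called. Its 95% interval for TZM minus CD8a+ DC ran from 0.13 to 1.14. Isg20, an exonuclease gene, averaged 5.88 ± 0.23, 5.51 ± 0.21 and 5.90 ± 0.18 in the same order and was not called either. Ifit2 and Ifit3 are neighbours on chromosome 19, and 3 protein-coding genes lie between Ifit1 and Ifit3.

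Of the 4 oligoadenylate synthetase family genes, 1 was called higher in TZM than in CD8a+ DC, beside 4.71% of all genes. Between TZM and microglia, 0 were called, where 4.25% of all genes were called higher and 3.4% lower. The enzymes of this family make a short adenylate chain that activates the nuclease RNase L. Oas2 was at 5.59, 6.35 and 5.96 in TZM, 5.15, 4.97 and 4.97 in microglia, and 4.17, 4.32 and 4.53 in CD8a+ DC. The ranges were separate in that order, with 1.62 ± 0.18 between TZM and CD8a+ DC (adjusted p = 0.00026) and 0.93 ± 0.18 between TZM and microglia. Without TZM replicate 1 the difference to microglia became 1.12 and was called. Oas3, its neighbour on chromosome 5, spanned 4.22 to 4.68 over all 9 arrays. Oasl2 averaged 5.93 ± 0.19 in TZM, 5.61 ± 0.26 in microglia and 5.27 ± 0.04 in CD8a+ DC (SD, n = 3 each), with a difference of 0.66 to CD8a+ DC (adjusted p = 0.0095) under the fold threshold. Oasl1, which in mice limits the translation of Irf7, was highest in CD8a+ DC, with 6.10, 6.32 and 6.04 in TZM, 6.01, 5.47 and 5.73 in microglia, and 6.71, 6.40 and 6.73 in CD8a+ DC. All CD8a+ DC arrays were above the rest, the mean difference of microglia minus CD8a+ DC was -0.88 ± 0.15, and no comparison was called with all arrays. Without microglia replicate 1, microglia were called lower than CD8a+ DC at -1.02.

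The Mx genes, which encode dynamin-like GTPases that act against viruses, were not called higher in TZM against either population. Mx1, whose mouse protein acts in the nucleus against influenza virus, was at 5.47, 5.68 and 5.48 in TZM, 5.02, 5.17 and 5.30 in microglia, and 7.52, 6.76 and 7.14 in CD8a+ DC. CD8a+ DC were highest without overlap, and TZM lay 1.60 below them (log2 fold change -1.60 ± 0.17, adjusted p = 0.00023). Mx2, whose mouse protein acts in the cytoplasm, was at 4.42, 4.14 and 4.24 in TZM, 5.23, 4.49 and 5.67 in microglia, and 4.06, 3.82 and 3.90 in CD8a+ DC. It was the sole gene of the 36 with its highest mean in microglia. The call for microglia over CD8a+ DC (1.20 ± 0.26, adjusted p = 0.0082) was lost without microglia replicate 3, at 0.93. The difference of TZM to microglia (-0.86 ± 0.26) was called without microglia replicate 2, at -1.18.

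Of the 3 GTPase genes that act on pathogen vacuoles, 2 were called higher in TZM than in CD8a+ DC and all 3 higher than in microglia. The shares of all genes so called were 4.71% and 4.25%. Gbp3, a guanylate-binding protein gene, was at 9.20, 8.59 and 8.73 in TZM, 6.28, 5.97 and 6.40 in microglia, and 5.26, 4.79 and 5.03 in CD8a+ DC. The 3 ranges were separate, with 3.81 ± 0.19 over CD8a+ DC (adjusted p = 1.9e-06) and 2.62 ± 0.19 over microglia (adjusted p = 2.2e-05). Iigp1, an immunity-related GTPase gene, was at 8.89, 9.45 and 8.48 in TZM, 5.51, 5.20 and 5.67 in microglia, and 7.38, 7.08 and 7.27 in CD8a+ DC. It also split the populations fully, but with microglia lowest: TZM exceeded microglia by 3.48 ± 0.23 (adjusted p = 1.4e-05) and CD8a+ DC by 1.69 ± 0.23. Irgm1, which regulates these GTPases, was at 8.13, 9.25 and 7.37 in TZM, 6.42, 6.33 and 6.92 in microglia, and 7.65, 7.37 and 7.37 in CD8a+ DC. TZM replicates spread by an SD of 0.94 for Irgm1, and TZM replicate 3 lay at the level of CD8a+ DC. Its call against microglia (1.69 ± 0.41, adjusted p = 0.020) was lost without microglia replicate 1 (adjusted p = 0.0688), without microglia replicate 2 (adjusted p = 0.0656) and with only the 2 populations in the fit (adjusted p = 0.0688). Its difference to CD8a+ DC (0.78 ± 0.41) was called only without TZM replicate 3, at 1.22.

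Genes of ISG15 conjugation and ADP-ribosylation gave 1 of 5 called higher in TZM than in CD8a+ DC and 2 of 5 higher than in microglia. Beside them stand 4.71% and 4.25% of all genes. Usp18, which removes the ubiquitin-like protein ISG15 and also silences the type I receptor, was at 7.96, 7.23 and 7.89 in TZM, 5.48, 5.95 and 6.21 in microglia, and 7.40, 7.18 and 7.18 in CD8a+ DC. Microglia were below both others without overlap, with 1.81 ± 0.23 between TZM and microglia (adjusted p = 0.00065). Parp14, an ADP-ribosyltransferase gene, was at 8.97, 8.61 and 8.52 in TZM, 7.33, 7.35 and 7.36 in microglia, and 6.98, 6.87 and 6.86 in CD8a+ DC. TZM exceeded CD8a+ DC by 1.80 ± 0.11 and microglia by 1.35 ± 0.11. Parp9 and Dtx3l, whose proteins form a complex, lie beside each other on chromosome 16, and Dtx3l also adjoins Parp14. Parp9 averaged 8.22 ± 0.04 in TZM, 7.52 ± 0.31 in microglia and 7.39 ± 0.47 in CD8a+ DC (SD, n = 3 each), a difference of 0.83 to CD8a+ DC with an adjusted p of 0.036 and under the fold threshold. Dtx3l averaged 7.60 ± 0.28 in TZM, 6.99 ± 0.26 in microglia and 7.67 ± 0.13 in CD8a+ DC. Herc6, an ISG15 ligase gene in mice, averaged 7.04 ± 0.24 in TZM, 7.11 ± 0.16 in microglia and 7.18 ± 0.26 in CD8a+ DC, with a 95% interval of -0.51 to 0.23 for TZM minus CD8a+ DC and -0.44 to 0.30 for TZM minus microglia.

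Both genes of transcription and signalling were uncalled for TZM, as were 87.1% of all genes. Stat2, a subunit of the complex that binds the response element, averaged 6.96 ± 0.19 in TZM, 6.23 ± 0.20 in microglia and 7.02 ± 0.29 in CD8a+ DC (SD, n = 3 each). TZM and CD8a+ DC differed by -0.06, with a 95% interval of -0.44 to 0.32, and TZM and microglia by 0.73 (adjusted p = 0.015, under the fold threshold). Ifi35, which forms a complex with Nmi, was at 7.26, 7.14 and 7.05 in TZM, 6.50, 6.59 and 7.15 in microglia, and 7.74, 7.89 and 7.67 in CD8a+ DC. It was highest in CD8a+ DC without overlap, and microglia were called lower than CD8a+ DC at -1.02 ± 0.16. That value lies just past the fold threshold, and the call was lost with quantile normalization (-0.98) and without CD8a+ DC replicate 2 (-0.96), microglia replicate 1 (-0.90) or microglia replicate 2 (-0.94).

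Among the other antiviral effectors, 3 of 6 were called higher and 1 lower in TZM than in CD8a+ DC, beside 4.71% and 4.03% of all genes. Against microglia, 4 of 6 were called higher in TZM, beside 4.25% of all genes. Bst2 encodes tetherin, which holds budding virions on the cell surface. It was at 10.67, 10.58 and 10.62 in TZM, 7.86, 7.71 and 7.75 in microglia, and 8.80, 8.66 and 8.80 in CD8a+ DC. Its arrays agreed closely within each population, and TZM exceeded microglia by 2.85 ± 0.07 (adjusted p = 4.5e-08) and CD8a+ DC by 1.87 ± 0.07 (adjusted p = 3.2e-07). Rtp4, a receptor chaperone gene with antiviral activity, was at 7.46, 8.66 and 7.62 in TZM, 6.57, 6.56 and 6.62 in microglia, and 4.15, 4.22 and 4.22 in CD8a+ DC. The ranges were separate, with 3.72 ± 0.27 over CD8a+ DC (adjusted p = 1.8e-05). The difference to microglia (1.33 ± 0.27) fell under the fold threshold without TZM replicate 2, at 0.96. Rsad2 encodes viperin, which makes a chain-terminating nucleotide. It was at 6.44, 7.29 and 6.90 in TZM, 5.13, 5.01 and 5.29 in microglia, and 5.31, 5.19 and 5.24 in CD8a+ DC, so TZM lay above the rest, by 1.73 ± 0.19 over microglia and 1.63 ± 0.19 over CD8a+ DC. Cmpk2, the gene next to Rsad2 on chromosome 12 and a kinase that supplies its nucleotide substrate, ranged from 3.23 to 3.98 over all 9 arrays, with no call, near the low end of the scale. Samd9l, a restriction factor gene against poxviruses, was at 7.09, 7.63 and 6.43 in TZM, 5.91, 5.09 and 5.44 in microglia, and 9.36, 9.41 and 9.15 in CD8a+ DC. TZM were in the middle, 2.26 below CD8a+ DC (log2 fold change -2.26 ± 0.30, adjusted p = 0.00080) and 1.57 ± 0.30 above microglia. Ly6e, a surface protein gene that modifies virus entry, was at 12.49, 12.43 and 12.47 in TZM, 12.002, 12.130 and 11.832 in microglia, and 12.24, 12.29 and 12.24 in CD8a+ DC. All TZM arrays were above the others, by 0.47 over microglia (adjusted p = 0.0028) and 0.20 over CD8a+ DC (adjusted p = 0.114). Both differences were short of the fold threshold, and the one to CD8a+ DC also missed the threshold on adjusted p.

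The 5 remaining induced genes held Ifi205, the gene with the widest difference of the set in any comparison. Of the 5, 3 were called higher in TZM than in CD8a+ DC and 4 higher than in microglia, beside 4.71% and 4.25% of all genes. Lgals3bp, a secreted galectin-binding glycoprotein gene, was at 11.934, 10.636 and 11.998 in TZM, 8.66, 8.49 and 8.68 in microglia, and 7.58, 7.90 and 7.59 in CD8a+ DC. TZM were far above both others, by 3.83 ± 0.32 over CD8a+ DC (adjusted p = 5.0e-05) and 2.91 ± 0.32 over microglia (adjusted p = 0.00030), although TZM replicate 2 lay more than 1 below the other TZM arrays. Ifi205, of a mouse family of interferon-inducible nuclear proteins, was at 6.89, 4.86 and 6.97 in TZM, 3.97, 2.97 and 2.91 in microglia, and 11.05, 10.91 and 11.06 in CD8a+ DC. Its populations did not overlap, and its order was CD8a+ DC, TZM, microglia: TZM were lower than CD8a+ DC (-4.77 ± 0.54, adjusted p = 0.00030), higher than microglia (2.96 ± 0.54, adjusted p = 0.0050), and microglia differed from CD8a+ DC by -7.72 ± 0.54. Genes of this family are close copies of each other, and whether their transcripts share this probe set was not tested. Tor3a, a torsin-family ATPase gene, was higher in TZM by 1.09 ± 0.13 over CD8a+ DC and 1.03 ± 0.13 over microglia. Both values lie just past the fold threshold. The first was 0.98 without CD8a+ DC replicate 3, and the second was 0.96 with quantile normalization, 0.98 without microglia replicate 3 and 0.94 without TZM replicate 1. Xaf1, which antagonises an inhibitor of apoptosis, was higher in TZM than in CD8a+ DC by 1.01 ± 0.20. That call was lost with median centring (0.96), quantile normalization (0.98) and array weights (0.99), and without TZM replicate 2 (0.79), CD8a+ DC replicate 1 (0.97) or CD8a+ DC replicate 3 (0.90). Ifi27l2a, which encodes a small membrane protein, was at 8.89, 9.91 and 9.01 in TZM, 8.32, 7.93 and 8.39 in microglia, and 8.35, 8.42 and 8.31 in CD8a+ DC. TZM replicate 2 was the highest array. The call against microglia (1.06 ± 0.25, adjusted p = 0.018) was lost without that array (0.74), without microglia replicate 2 (adjusted p = 0.0631), with array weights (0.86), with quantile normalization (0.99) and with only the 2 populations in the fit (adjusted p = 0.0662). The difference to CD8a+ DC (0.91 ± 0.25) was called without TZM replicate 1 (1.10) or replicate 3 (1.04).

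**Figure D2:**
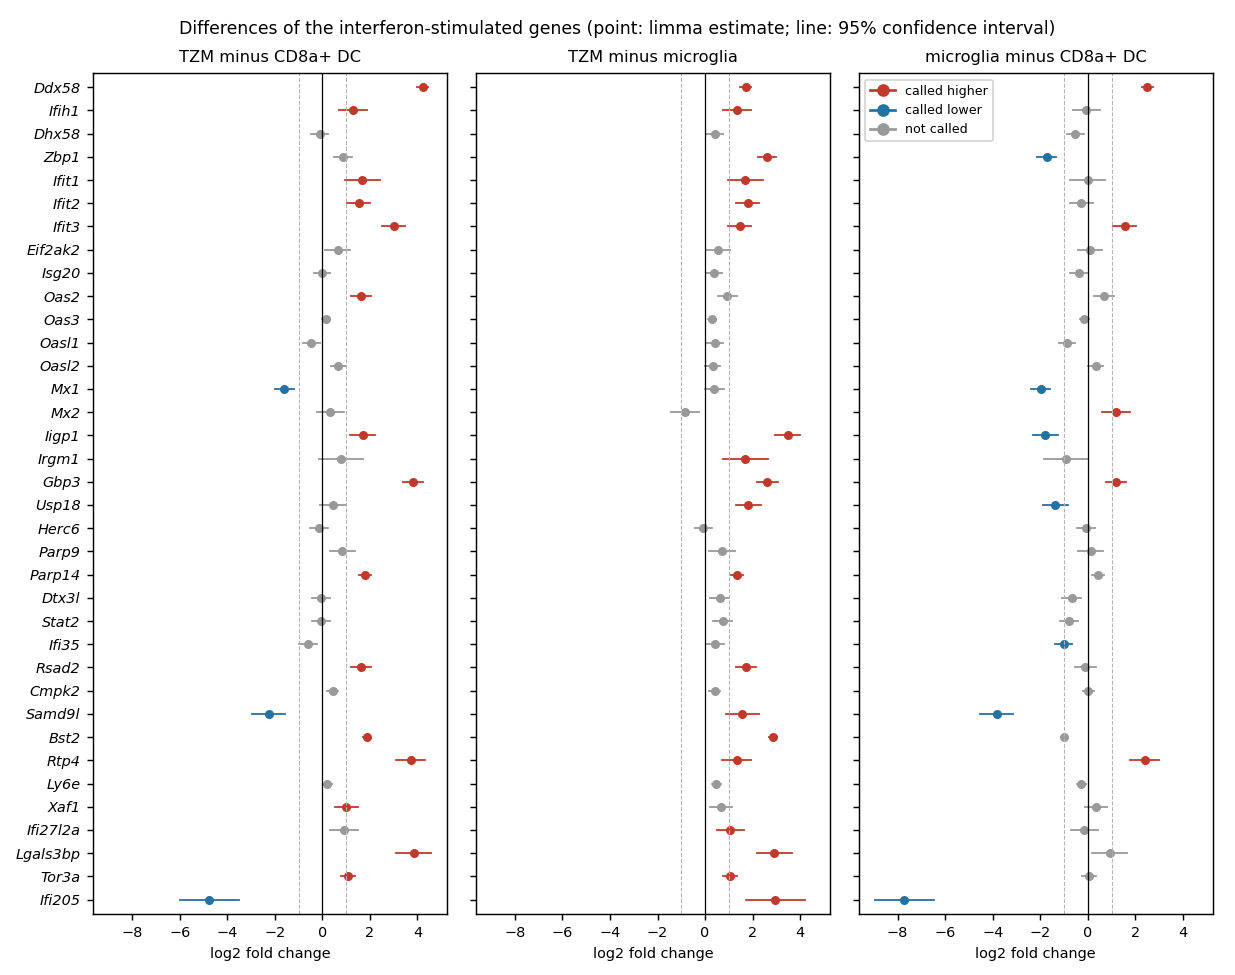
Log2 fold change of each interferon-stimulated gene in TZM minus CD8a+ DC, TZM minus microglia and microglia minus CD8a+ DC, as limma's estimate (point) with its 95% confidence interval (line), on one horizontal scale with dashed lines at the fold threshold. The called genes number 15 higher and 3 lower in the first panel, 19 and 0 in the second and 5 and 7 in the third, where Ifi205 reaches -7.72.

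Between microglia and CD8a+ DC, 12 of the 36 genes were called and 24 were not. Microglia were called higher than CD8a+ DC for Ddx58 (2.51 ± 0.10), Rtp4 (2.39 ± 0.27), Ifit3 (1.55 ± 0.21), Mx2 and Gbp3 (1.19 ± 0.19), of which all but Mx2 were higher still in TZM. They were called lower for Ifi205, Samd9l (-3.83 ± 0.30), Mx1 (-1.98 ± 0.17), Iigp1 (-1.78 ± 0.23), Zbp1 (-1.73 ± 0.17), Usp18 (-1.37 ± 0.23) and Ifi35. Bst2 differed by -0.98 ± 0.07 (adjusted p = 9.7e-06) and passed the fold threshold with median centring, at -1.01, and without CD8a+ DC replicate 2 or microglia replicate 1, at -1.03 each. Lgals3bp was higher in microglia by 0.92 ± 0.32 and was called with quantile normalization, at 1.02. Of the 13 genes highest in TZM by both calls, 4 had microglia called above CD8a+ DC, 1 (Iigp1) had microglia called below CD8a+ DC, and for 8 those populations were not called apart. For Ifih1, Ifit1 and Rsad2 the 95% intervals of microglia minus CD8a+ DC were -0.64 to 0.52, -0.74 to 0.73 and -0.53 to 0.33.

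The spread between replicate arrays is given as a description, with no test. The median SD over 3 arrays was 0.253 in TZM, 0.210 in microglia and 0.144 in CD8a+ DC for the 36 genes, beside 0.117, 0.104 and 0.0984 for all genes, many of which have low levels. For the 7678 genes with a level of at least 6 on at least 3 arrays, it was 0.200, 0.158 and 0.134. The SD passed 0.5 for 8 of the 36 genes in TZM, 2 in microglia and 0 in CD8a+ DC, beside 3.44%, 1.44% and 0.767% of all genes. TZM replicate 2 was the highest of the TZM arrays for 18 of the 36 genes (50% of them, and 35.6% of all genes) and the lowest for 13. The 18 include Irgm1 (1.0 above the TZM mean), Rtp4 (0.75), Ifit1 (0.67), Ifi27l2a (0.64), Samd9l (0.58) and Ifih1 (0.54). Among the 13 were Ifi205 (1.38 below the mean), Lgals3bp (0.89 below) and Usp18 (0.46 below). TZM replicate 2 thus did not stand apart in one direction. It was also the array with the highest levels of S100a8 and S100a9, with S100a8 at 5.89, 9.28 and 7.32 and S100a9 at 6.21, 9.39 and 7.89 on TZM replicates 1 to 3. The neutrophil marker Ngp had the same order of arrays, at 4.98, 5.75 and 5.43, while Ly6g stayed between 3.13 and 3.24. The part of these transcripts in the interferon-stimulated levels was not tested. Other arrays also departed from the share of all genes. TZM replicate 3 was highest for 5 of the 36 (13.9%, beside 35.6% of all genes). Microglia replicate 3 was highest for 18 (50%, beside 30.9%) and microglia replicate 2, the array with the lowest Ttr, for 9 (25%, beside 38.4%). CD8a+ DC replicate 1 was highest for 17 (47.2%, beside 35.7%). A link of Ttr to the levels of the 36 genes was not tested. Each of the 13 genes called higher in TZM than in both others kept its direction without TZM replicate 2, and Rtp4 alone of them lost a call there.

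**Figure D3:**
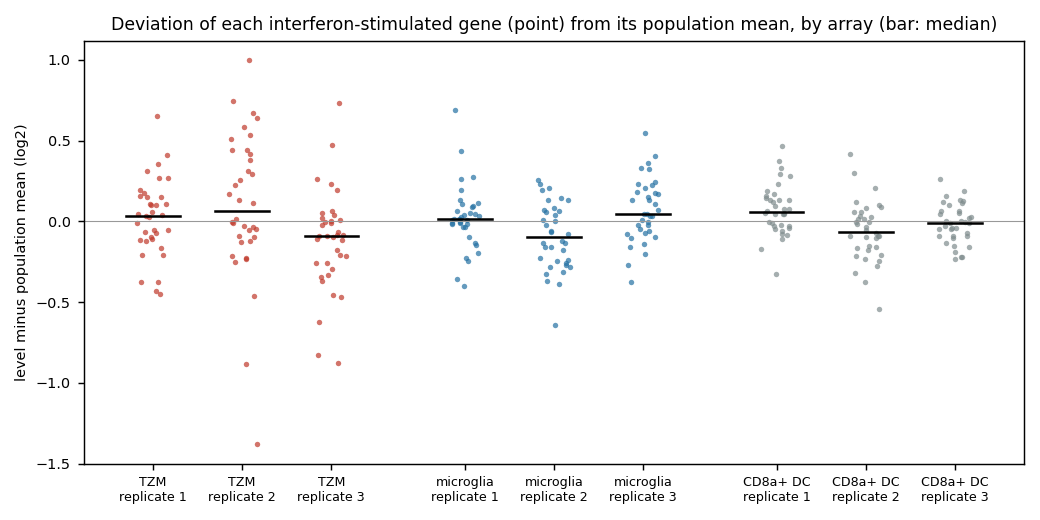
Level of each of the 36 interferon-stimulated genes (point) minus its mean over the 3 arrays of the same population, in log2 units, for every array, with a bar at the median. TZM replicate 2 has both the highest point (Irgm1, 1.0) and the lowest (Ifi205, -1.38), and its median is 0.06, beside -0.09 for TZM replicate 3.

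A filter on level would drop part of the set. With a level of at least 6 required on at least 3 arrays, 28 of the 36 genes remained, and Dhx58, Ifit1, Isg20, Oas2, Oas3, Oasl2, Mx2 and Cmpk2 did not. No detection call was used, so a low level is not separated from background, and a fold change against such a level may understate a difference.

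Genes of the pathway upstream of the set were called in both directions. Of 40 listed ligand, receptor, signalling and sensing genes, 36 were measured, and 5 were called higher and 4 lower in TZM than in CD8a+ DC (13.9% and 11.1%, beside 4.71% and 4.03% of all genes). Against microglia, 2 were called higher in TZM and 4 lower (5.56% and 11.1%, beside 4.25% and 3.4% of all genes). The 5 measured interferon ligand genes (Ifnb1, Ifna4, Ifng, Ifnk and Ifne) stayed between 3.26 and 4.61 on all 9 arrays, with no call. Ifnar1, a subunit of the type I receptor, was at 9.05, 9.0 and 9.16 in TZM, 8.04, 8.07 and 8.22 in microglia, and 8.49, 8.46 and 8.46 in CD8a+ DC. All TZM arrays were above the rest, by 0.96 ± 0.07 over microglia (adjusted p = 2.3e-05) and 0.60 ± 0.07 over CD8a+ DC (adjusted p = 0.00034), under the fold threshold. Ifnar2, the partner subunit, was at 10.53, 10.24 and 10.41 in TZM, 10.05, 10.01 and 10.09 in microglia, and 9.06, 9.14 and 8.94 in CD8a+ DC, and TZM exceeded CD8a+ DC by 1.35 ± 0.09. Il10rb, a subunit shared by the lambda interferon and interleukin receptors, was higher in TZM than in CD8a+ DC by 1.73 ± 0.21.

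Both called receptor kinase genes were lower in TZM than in CD8a+ DC. Jak2, used by the gamma interferon receptor, differed by the most (-1.54 ± 0.15, adjusted p = 0.00012), followed by Tyk2, used by the type I receptor (-1.39 ± 0.12, adjusted p = 6.2e-05), and neither was called against microglia. Irf7, the regulator that amplifies type I interferon transcription, was at 7.72, 7.54 and 7.64 in TZM, 4.62, 4.49 and 4.98 in microglia, and 7.44, 7.56 and 7.20 in CD8a+ DC. The difference of TZM and CD8a+ DC had a 95% interval of -0.09 to 0.55, and TZM exceeded microglia by 2.94 ± 0.14 (adjusted p = 1.9e-06). Irf9, the DNA-binding partner of Stat2, averaged 6.79 ± 0.45 in TZM, 6.48 ± 0.14 in microglia and 6.81 ± 0.21 in CD8a+ DC (SD, n = 3 each) and was not called. Irf5, which acts below the endosomal receptors, was lower in TZM than in both microglia (-1.47 ± 0.18) and CD8a+ DC (-1.77 ± 0.18). Socs3, an inhibitor of cytokine signalling, was at 8.09, 7.58 and 8.09 in TZM, 9.47, 9.52 and 9.41 in microglia, and 6.30, 6.60 and 6.46 in CD8a+ DC, so TZM were in between. Among the sensors, Tlr7, an endosomal receptor for single-stranded RNA, was at 8.77, 8.77 and 8.69 in TZM, 9.86, 10.15 and 9.73 in microglia, and 5.55, 5.22 and 4.60 in CD8a+ DC. Tlr3, the endosomal receptor for double-stranded RNA, was at 6.87, 7.48 and 6.91 in TZM, 9.13, 9.15 and 9.33 in microglia, and 10.42, 10.38 and 10.33 in CD8a+ DC. The cytosolic RNA sensor genes Ddx58 and Ifih1 were thus highest in the population in which Tlr3 was lowest. Mavs, the adaptor of those cytosolic sensors, was higher in TZM than in CD8a+ DC by 1.76 ± 0.28 (adjusted p = 0.0023). Samhd1, a nucleotide hydrolase that restricts retroviruses, was higher in TZM than in microglia by 1.23 ± 0.08 and differed from CD8a+ DC by -0.58 ± 0.08.

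**Figure D4:**
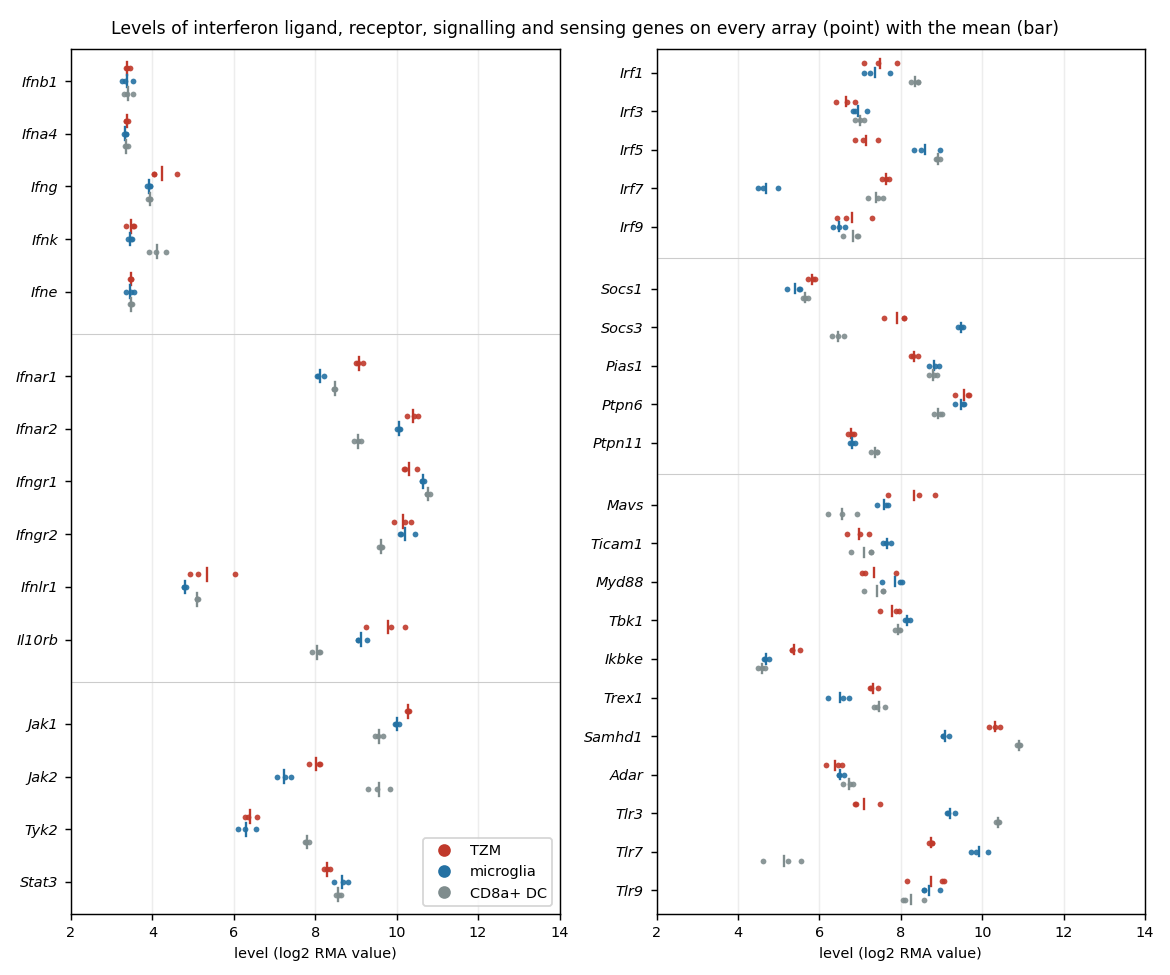
Level of 36 interferon ligand, receptor, signalling and sensing genes on every array, on the log2 RMA scale of the horizontal axis, with TZM above microglia and CD8a+ DC within each gene, points for arrays and bars for means of 3 arrays. The 5 ligand genes lie between 3.26 and 4.61 in all populations, Irf7 is low in microglia, and Tlr3 is lowest and Ifnar1 highest in TZM.

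Other genes known to be induced by interferon were set beside the 36. Of 30 listed, 21 were measured, and in TZM 6 were called higher and 4 lower than in CD8a+ DC (28.6% and 19.0%, beside 4.71% and 4.03% of all genes), with a median log2 fold change of -0.22 where the 36 genes had 0.81. Against microglia, 13 were called higher in TZM and 0 lower (61.9% and 0%, beside 4.25% and 3.4% of all genes), with a median of 1.22. Siglec1, given above as a sinus macrophage marker, is also on this list and is counted as higher in both comparisons. The genes higher than in CD8a+ DC were led by the guanylate-binding protein gene Gbp7, which was at 9.26, 8.14 and 8.97 in TZM, 7.71, 7.42 and 7.35 in microglia, and 4.50, 4.78 and 4.66 in CD8a+ DC. It had the same order as Gbp3. Ifi203, of the same family as Ifi205, was at 10.17, 10.24 and 9.52 in TZM, 6.45, 4.80 and 5.80 in microglia, and 6.75, 6.74 and 6.55 in CD8a+ DC. TZM exceeded CD8a+ DC by 3.30 ± 0.38 for Ifi203, while Ifi205 differed by -4.77 ± 0.54. The lower genes included Gbp9 (-1.43 ± 0.15), Nmi (-1.28 ± 0.13) and the immunoproteasome subunit gene Psmb8 (-1.15 ± 0.24). Cxcl9, a chemokine gene induced by gamma interferon, was at 12.04, 12.13 and 11.91 in TZM, 6.67, 4.07 and 5.46 in microglia, and 11.90, 11.92 and 11.86 in CD8a+ DC. Its difference of 6.63 ± 0.53 between TZM and microglia (adjusted p = 4.1e-05) was larger than the difference of any of the 36 genes in that comparison, and its 95% interval between TZM and CD8a+ DC ran from -1.07 to 1.34. Cxcl10, a chemokine gene of both interferon types, exceeded microglia in TZM by 2.24 ± 0.29 and CD8a+ DC by 1.91 ± 0.29. Plasmacytoid dendritic cells, strong producers of type I interferon, have 6 measured markers. These averaged 6.49 to 6.59 per array in TZM, 6.60 to 6.74 in microglia and 7.04 to 7.27 in CD8a+ DC. The averages join markers that went opposite ways. In TZM, 1 was called higher and 3 lower than in CD8a+ DC, and 1 higher and 1 lower than in microglia. Between microglia and CD8a+ DC, 2 were called higher in microglia and 2 lower. Siglech had means of 7.98 in TZM, 11.36 in microglia and 8.32 in CD8a+ DC. The part of sinus macrophages or plasmacytoid cells in the levels of the 36 genes was not tested.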

How the data were processed

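Log2 expression values, deposited by the authors for 35556 probe sets on 9 arrays, were made by RMA in Affymetrix Expression Console 1.3.1, per the submitters' processing notes. The build is not given in the sources used here. Probe sets with a single symbol in the platform annotation, the brightest per gene, left 19938 genes. Array medians ran from 4.90 to 5.02, and the number of arrays limits the precision. Populations came from the labels and were compared by lmFit and eBayes of limma 3.58.1 (R 4.3.3), in 1 fit of 9 arrays, with Benjamini-Hochberg adjustment over all genes. Standard errors and 95% intervals come from this fit, and SDs from the 3 arrays. The members and the lists were chosen with earlier results of these data known. Array values are given for the 8 largest called differences per comparison and for members with another order of populations, with others added after their values were seen. At most 8 called genes per comparison and list were named beside them, with Ifnar1, Ifnar2, Irf7 and Irf9. Promoters are RefSeq's. Alternatives tried were calls without a minimum fold change, only genes of at least 6 on at least 3 arrays, median centring, quantile normalization, other probe set rules, fewer populations, trended and robust eBayes, array weights, a replicate block and each array left out.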

Additional observations from a re-analysis of the deposited data

How the results depend on the processing

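Under the alternatives, 157 values of the counts and medians over the 36 genes stayed within the margins set for them and 5 did not. The margins are loose, and counts of 15 and 20 genes higher in TZM than in CD8a+ DC fell within them. The median log2 fold change of TZM minus CD8a+ DC ran from 0.64 (without TZM replicate 2) to 0.89 with arrays left out, and that of TZM minus microglia was 1.35 with the filter on level, which keeps 28 genes. Some members, such as Ifit2 and Rsad2, passed this filter only through their TZM arrays. The filtered median is therefore partly set by the filter and is no separate support for a direction. The count of genes lower in TZM than in microglia ran from 0 to 1 with arrays left out, the 1 being Mx2 without microglia replicate 2. With no minimum fold change it was 1, and 13 genes were lower in microglia than in CD8a+ DC, where 9.39% and 13.1% of all genes were called lower. Under that setting the 36 measured pathway genes gave 10 higher and 10 lower for TZM against CD8a+ DC, beside 9.83% and 10.4% of all genes. They gave 9 and 9 for TZM against microglia, beside 10% and 9.39% of all genes. For microglia against CD8a+ DC they gave 9 and 10, beside 12% and 13.1% of all genes. Of the 21 other induced genes, 7 were lower in TZM than in CD8a+ DC and 2 lower than in microglia, beside 10.4% and 9.39% of all genes. Pathway genes higher in microglia than in CD8a+ DC numbered 5 of 36 in the main fit, beside 5.15% of all genes. The count was 3 with median centring or without microglia replicate 3, where 995 and 977 of all 19938 genes were called higher. Of single-gene values, 1973 kept their side of the threshold, 24 lost it, 31 gained it and 0 reversed. Part of these values had little room to change. Each gene had 1 probe set, so other probe set rules left its fold changes as they were. The replicate block did the same, as did leaving out an array for the other 2 populations. The tallies are therefore no measure of how robust the calls are. The labels do not say whether the replicate numbers pair the arrays. Of 9 same-number correlations of deviations, 1 passed 0.1 (range -0.145 to 0.128), and those of unlike numbers ran from -0.19 to 0.149. By these values, 2 of 9 arrays correlated best with their own number. Correlations between different cell types cannot decide whether samples shared mice or a sort, so pairing is left unsettled. With the replicate number as a block, TZM had 15 genes higher and 3 lower than CD8a+ DC and 19 higher than microglia.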
